A study of Mus musculus with 8 samples.

Results

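The genes described here are 32 transcripts of endothelial cells, the cells that line blood vessels, measured in 2 mesenchymal cell sorts from mouse liver. They were taken by symbol from a fixed list. Of 30395 gene identifiers in the deposited tables, 32 matched, and all 32 passed the filter on low values (1 CPM, that is 1 read per 1000000, or more in 2 libraries or more). Neither sort is labelled as endothelial, so the values describe how much endothelial RNA, or RNA shared with endothelium, each library of mesenchymal cells held.

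The 8 libraries formed 4 groups of 2. Stellate cells and Gli1+ mesenchymal cells from around the bile ducts were each sorted from uninjured liver and from liver whose bile duct had been tied 5 d earlier (bile duct ligation, BDL). All groups shared the genotype Gli1:CreER+/-; Ai9+/-, the mixed strain (C57BL/6, SWR/J) and an age of 8 weeks. CreER is a recombinase switched on by tamoxifen and is driven here by the Gli1 gene, and Ai9 is a red fluorescent reporter, so any cell with Gli1 activity could carry the label. Cells were released with pronase and collagenase, parted on a gradient and sorted into RNA buffer, and their full-length cDNA was amplified by PCR (SMART-Seq2). The sources used here do not give the sort gates. Replicates are numbered without word on whether each is its own animal, so the p-values cover only the variation among these libraries, and that may be technical.

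Liver sinusoids are lined by a specialised endothelium with open pores and no continuous basement membrane. It clears macromolecules from blood through scavenger and lectin receptors such as stabilins, and stellate cells lie directly against it. Portal vessels have a continuous endothelium, where Vwf (von Willebrand factor) and tight junction genes are more prominent. Receptors for VEGF, angiopoietins and the bone morphogenetic proteins Gdf2 and Bmp10 are shared by most endothelial cells.

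Libraries held 11261775 to 19180370 reads, and 3 reads corresponded to 0.156 to 0.266 CPM. Between 29 and 32 members had a read in a library. Markers of the sorts lay on the side of the labels. They were chosen with earlier results of these data known, and the portal fibroblast list includes Gli1, so this is no independent check. All 10 stellate markers were lower in Gli1+ libraries with limma-adjusted p under 0.05, without injury (3.02% of all genes) and after BDL (2.36%). Of 10 portal fibroblast markers 10 were higher by that test without injury (8.06% of all genes) and 7 after BDL (4.44%). Gli1+ libraries also held bile duct and mesothelial RNA: 8 cholangiocyte genes summed to 3172 to 15406 CPM in them and to 3.55 to 756 CPM in stellate libraries, and 6 mesothelial genes to 1924 to 8352 and 3.18 to 8.81 CPM. Libraries of 1 group differed in other cell types. The 15 macrophage and Kupffer cell genes summed to 13718 and 77.3 CPM in the uninjured stellate libraries, with 15 of 15 higher in the first, and 2 of them (Timd4 and Mpeg1) had no read in the second. In the other groups they summed to 4307 and 2009.7 CPM (Gli1+ uninjured), 2231 and 3271 CPM (Gli1+ after BDL) and 2184 and 1522 CPM (stellate after BDL). The 10 hepatocyte genes summed to 1002 and 137, 102 and 59.9, 2542 and 13878 and 1552 and 1263 CPM in Gli1+ uninjured, stellate uninjured, Gli1+ BDL and stellate BDL libraries. In bulk RNA, fewer cells of a type and less RNA per cell cannot be told apart.

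Endothelial transcripts were present in every library, at levels that differed widely between the 2 libraries of a group. For Gli1+ cells the median member stood at 61.5 and 15.4 CPM without injury and at 57.8 and 89.7 CPM after BDL. For stellate cells it stood at 40.5 and 4.98 CPM without injury and at 134 and 116 CPM after BDL. The second uninjured stellate library stood lowest, with 12 members under 1 CPM, and both BDL stellate libraries stood highest. In the uninjured Gli1+ group 29 of 32 members were higher in the first library, and in the uninjured stellate group 22 were. In the BDL Gli1+ group the second library was the higher one for 23 members.

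**Figure D1:**
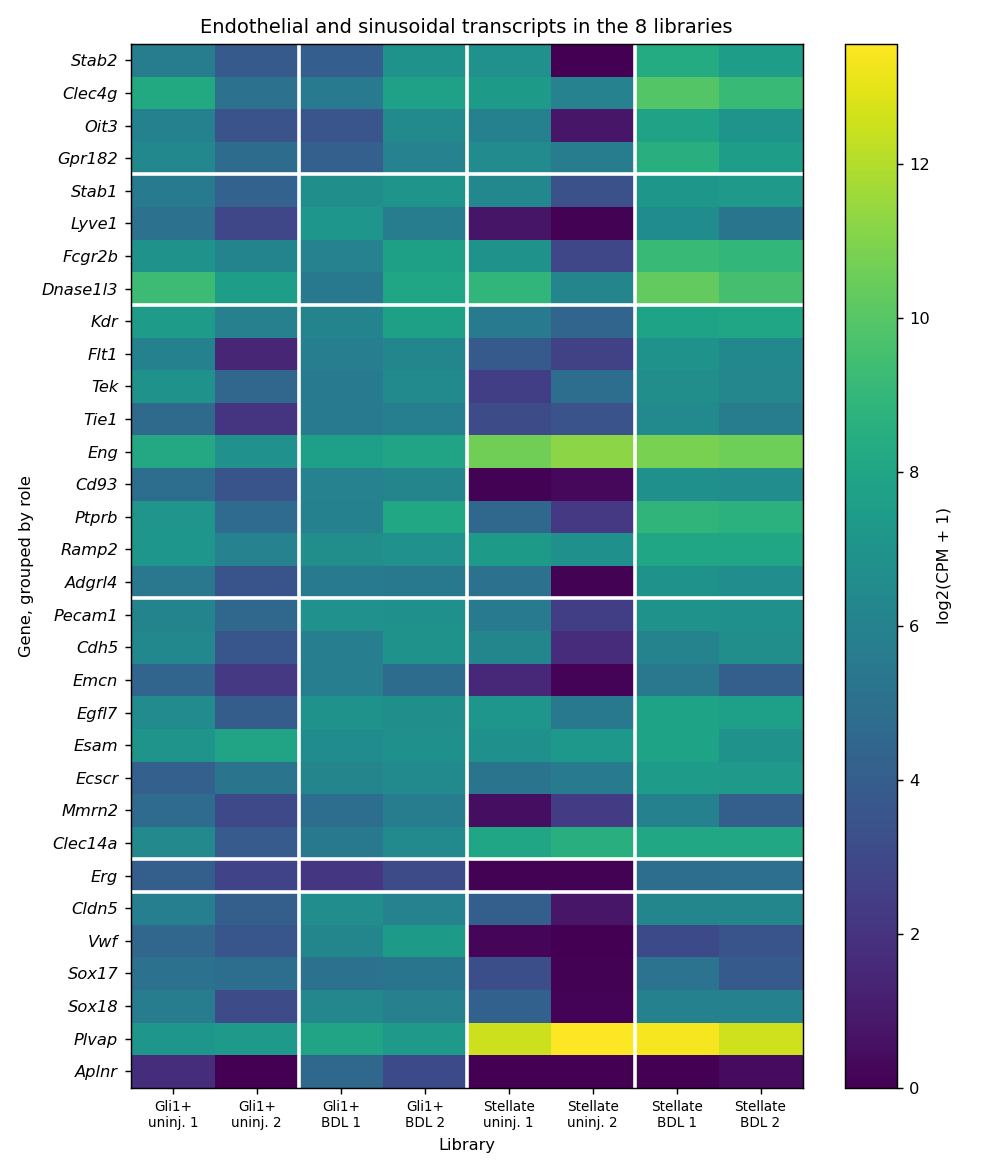
Level of each member (rows, grouped by role) in each library (columns), as log2(CPM + 1). Plvap and Eng are bright in all 4 stellate libraries, and many other members are dark in the second uninjured stellate library and brighter in the BDL stellate libraries.

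Per kb of exon, the scale on which genes can be compared with each other, the order of the group means differed between sorts. Plvap, the diaphragm protein of endothelial pores and caveolae, led in stellate libraries at 4514 CPM per kb without injury and 4171 after BDL. Eng, a co-receptor for Gdf2 and Bmp10, came next at 479 and 413 CPM per kb. In uninjured Gli1+ libraries Dnase1l3 (78.9 CPM per kb), Plvap (74.5), Clec4g (68.4), Esam (63.5) and Eng (49.3) were the first 5. After BDL the Gli1+ order began with Plvap (101), Cldn5 (57.9), Eng (54.2) and Clec4g (53.7). The spread within the uninjured Gli1+ group was large beside the steps of this order: Dnase1l3 and Clec4g were at 407 ± 316 and 168 ± 191 CPM (SD, n = 2) without injury.

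Promoter sequence is shown for 4 members: Eng, high in stellate libraries throughout, and Flt1, Clec4g and Cldn5, whose BDL stellate libraries lay above the uninjured ones. RefSeq promoter windows (GRCm38.p6, 250 bases before the annotated start) were found for 15 members with 19 starts. The letters searched were AGGAAG on both strands, a core of the sites bound by ETS factors, the family of the member Erg. They occurred at 11 of 19 member starts (57.9%), in 10 of the 15 members, and at 29.5% of the 32851 starts in the table. A match is a run of letters and not a shown binding site. Capitals mark the matches, with CTTCCT for the opposite strand. The 2 last matches of Clec4g overlap each other, and Cldn5 is shown as one of the 5 matched members with none of these letters in the windows (the others are Fcgr2b, Tek, Kdr and Clec14a).
Eng (chr2:32646345-32646594, plus strand): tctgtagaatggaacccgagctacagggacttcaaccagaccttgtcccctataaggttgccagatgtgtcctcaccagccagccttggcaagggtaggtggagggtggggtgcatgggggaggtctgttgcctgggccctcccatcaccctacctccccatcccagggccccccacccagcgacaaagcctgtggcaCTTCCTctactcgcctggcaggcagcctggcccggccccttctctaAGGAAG
Flt1 (chr5:147726012-147726261, minus strand): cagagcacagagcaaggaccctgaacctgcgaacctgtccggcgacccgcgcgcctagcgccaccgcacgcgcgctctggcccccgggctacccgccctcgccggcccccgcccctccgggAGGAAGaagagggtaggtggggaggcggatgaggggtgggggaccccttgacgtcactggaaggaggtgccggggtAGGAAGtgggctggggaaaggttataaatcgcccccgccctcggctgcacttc
Clec4g (chr8:3720652-3720901, minus strand): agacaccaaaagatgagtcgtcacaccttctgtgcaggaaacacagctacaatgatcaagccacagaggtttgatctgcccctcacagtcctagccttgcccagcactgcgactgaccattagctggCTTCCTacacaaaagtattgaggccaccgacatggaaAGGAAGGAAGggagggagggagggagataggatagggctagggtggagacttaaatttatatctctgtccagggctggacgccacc
Cldn5 (chr16:18776597-18776846, plus strand): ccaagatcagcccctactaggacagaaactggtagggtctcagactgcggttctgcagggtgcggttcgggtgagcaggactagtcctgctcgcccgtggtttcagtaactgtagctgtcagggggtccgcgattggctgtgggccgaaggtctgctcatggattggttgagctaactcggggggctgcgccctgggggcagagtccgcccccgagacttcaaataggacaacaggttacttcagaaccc

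The 4 genes most typical of sinusoidal endothelium did not part the sorts in uninjured liver but all lay higher in stellate than in Gli1+ libraries after BDL. Stab2 (ENSMUSG00000035459.15, chromosome 10, 86841198 to 87008025, minus strand), a scavenger receptor that takes up hyaluronan, was at 53.2 and 13.1 CPM in uninjured Gli1+, 15.4 and 118 in BDL Gli1+, 117 and 0 in uninjured stellate and 319.8 and 183 in BDL stellate libraries. The uninjured stellate pair spanned the whole range of the other uninjured libraries, and both BDL stellate libraries lay above all other 6. Differences were tested with limma, with p adjusted over all genes tested, and a gene is called where the adjusted p is under 0.05. The log2 fold change of CPM + 1 was -2.46 ± 1.900 (SE) for Gli1+ against stellate after BDL (adjusted p = 0.58) and 4.49 ± 1.900 for BDL against uninjured stellate cells (0.395), neither past the threshold.

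Clec4g (ENSMUSG00000074491.9, chromosome 8, 3707064 to 3720651, minus strand), a lectin of the sinusoidal surface, was at 303 and 33.7 CPM in uninjured Gli1+, 45.8 and 219 in BDL Gli1+, 168 and 62.6 in uninjured stellate and 982 and 564 in BDL stellate libraries. Oit3 (ENSMUSG00000009654.4, chromosome 10, 59422958 to 59441778, minus strand), a zona pellucida domain protein, stood at 61.4 and 10.04, 10.7 and 86.3, 61.7 and 0.782 and 222 and 128 CPM in the same order of groups. For both genes the 2 BDL stellate libraries were the 2 highest of all 8, and the 2 uninjured groups overlapped. Gli1+ against stellate after BDL gave -2.88 ± 1.04 for Clec4g (adjusted p = 0.161) and -2.41 ± 1.604 for Oit3 (0.498). BDL against uninjured stellate gave 2.84 ± 1.04 (0.315) and 4.003 ± 1.604 (0.362). In Gli1+ cells the BDL difference was -0.02 ± 1.04 for Clec4g and 0.29 ± 1.604 for Oit3.

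Gpr182 (ENSMUSG00000058396.7, chromosome 10, 127747276 to 127751732, minus strand), an atypical chemokine receptor, was the 1 gene of these 4 that passed a test. It was read at 80.1 and 26.9 CPM in uninjured Gli1+, 16.8 and 63.5 in BDL Gli1+, 90.3 and 50.6 in uninjured stellate and 368 and 195 in BDL stellate libraries. The 2 BDL stellate libraries lay above the other 6. After BDL it was 7.01-fold lower by mean CPM in Gli1+ than in stellate cells (log2 fold change -2.99 ± 0.72, adjusted p = 0.0439). The call held under 7 of 18 alternatives; without the first or second Gli1+ BDL library the adjusted p was 0.29 and 0.0552, and without the first or second stellate BDL library 0.303 and 0.142. Leaving out either uninjured Gli1+ library gave 0.0502 and 0.0504.

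All 4 sinusoidal genes had non-overlapping groups after BDL, lower in Gli1+ cells (19% of all 16446 genes tested had such a pattern in that direction), and 4 of 4 were non-overlapping and higher in stellate cells after BDL than before (27.4% of all genes). Their summed level was 498 and 83.8 CPM in uninjured Gli1+, 88.7 and 487 in BDL Gli1+, 437 and 114 in uninjured stellate and 1891 and 1069.7 in BDL stellate libraries. Within the Gli1+ groups the 2 states overlapped: the second BDL library and the first uninjured library were nearly level. The second BDL Gli1+ library also held the most hepatocyte RNA of all 8, and both BDL stellate libraries held more than the uninjured ones; the part of hepatocyte RNA in these levels was not tested.

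Set against the 18 pan-endothelial members, the 4 sinusoidal genes gave a ratio of summed CPM of 0.325 and 0.127 in uninjured Gli1+, 0.0692 and 0.258 in BDL Gli1+, 0.173 and 0.0366 in uninjured stellate and 0.418 and 0.276 in BDL stellate libraries. The BDL stellate pair was high, but the first uninjured Gli1+ library exceeded the second of that pair. Eng and Clec14a made up most of the pan-endothelial sum in uninjured stellate libraries. Without both, a choice made after their values were seen, the ratios were 0.428 and 0.158, 0.0854 and 0.312, 0.623 and 0.266 and 0.779 and 0.516 in the same order, and the first uninjured stellate library then lay inside the BDL stellate pair. A ratio over members has no test.

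**Figure D2:**
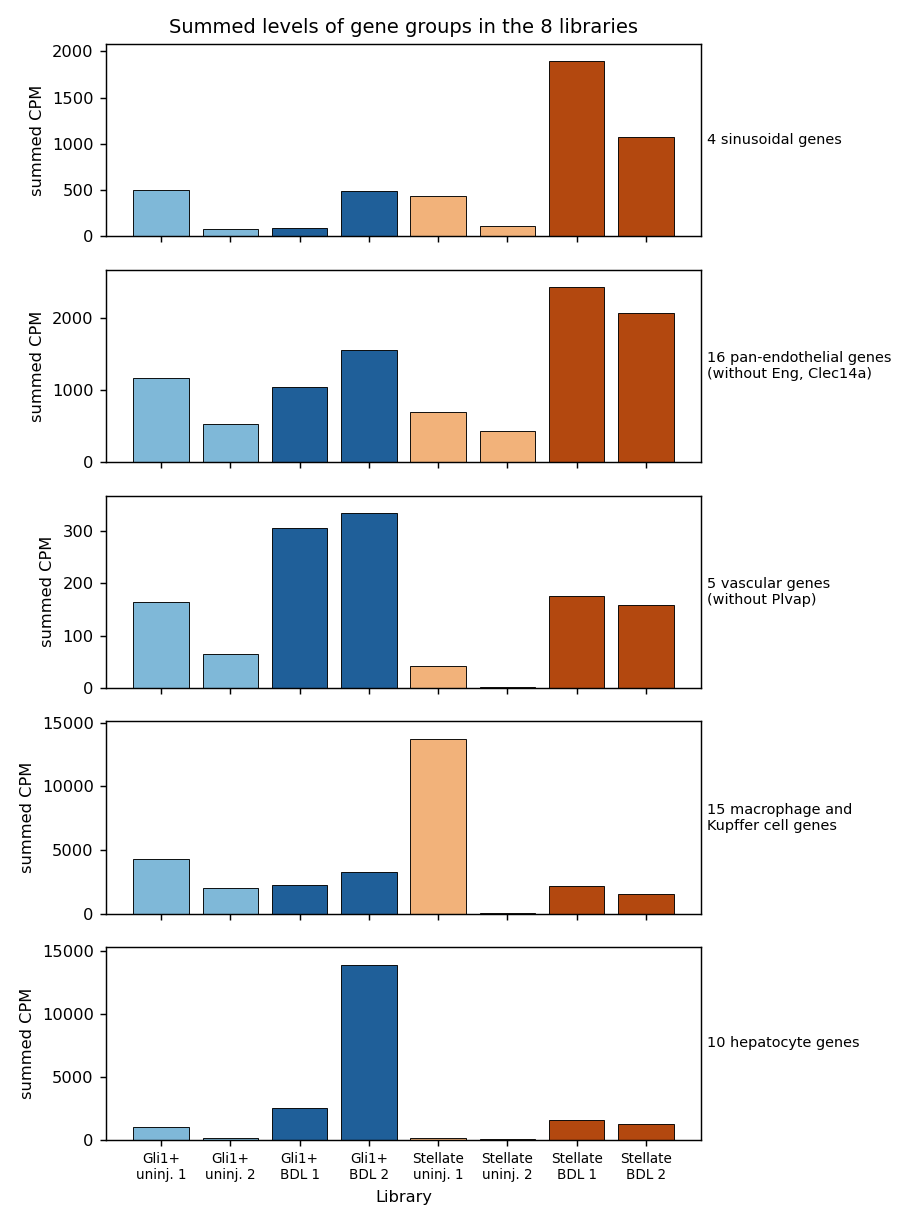
Summed CPM per library (bars, 1 per library, linear axes from 0) for the 4 sinusoidal genes, the pan-endothelial genes without Eng and Clec14a, the vascular genes without Plvap, and 2 marker lists of other cell types. The sinusoidal and pan-endothelial sums are highest in the BDL stellate libraries, and the vascular sum without Plvap in the BDL Gli1+ libraries. Leaving out Plvap was not planned. With it, the vascular sum was 221 to 549 CPM in Gli1+ and 5971 to 12010 CPM in stellate libraries. The macrophage sum is highest in the first uninjured stellate library and the hepatocyte sum in the second BDL Gli1+ library.

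The other sinusoidal members are shared with further cell types: Stab1, Lyve1 and Fcgr2b are also known from macrophages, and Lyve1 from lymphatic vessels. Lyve1 (ENSMUSG00000030787.4, chromosome 7, 110850607 to 110863239, minus strand), a hyaluronan receptor, was at 32.4 and 6.45 CPM in uninjured Gli1+, 139.8 and 50.9 in BDL Gli1+, 0.673 and 0.0521 in uninjured stellate and 95.6 and 37.04 in BDL stellate libraries. Both uninjured stellate libraries, with 12 reads in all, lay below the other 6. Without injury it was higher in Gli1+ cells (53.6-fold by mean CPM, log2 fold change 3.57 ± 0.89, adjusted p = 0.0366). The call held under 9 of 18 alternatives: the adjusted p was 0.197 without the first uninjured Gli1+ library, 0.0825 without the second uninjured stellate library, and 0.0635 to 0.0694 without any 1 of the 4 BDL libraries. BDL against uninjured stellate gave 5.51 ± 0.89 (adjusted p = 0.0688).

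Stab1, a scavenger receptor, was at 49.2 and 18.5 CPM in uninjured Gli1+ and 107 and 128 CPM in BDL Gli1+ libraries, with no overlap (1.91 ± 0.85, adjusted p = 0.464). Fcgr2b, an inhibitory receptor for IgG, was at 119.8 and 6.26 CPM in uninjured and 585 and 494 CPM in BDL stellate libraries (4.18 ± 1.12, adjusted p = 0.192). After BDL the Gli1+ libraries stood at 62.4 and 208 CPM, below both stellate ones (-2.23 ± 1.12, 0.335). Dnase1l3, a secreted DNase, went from 629.9 and 183 CPM in uninjured to 43.8 and 251 CPM in BDL Gli1+ libraries, overlapping groups, and stood at 481 and 70.1 and then 1267 and 745 CPM in stellate ones. Its difference between sorts after BDL was -3.19 ± 1.04 (adjusted p = 0.119).

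Among the 9 pan-endothelial receptors, Eng was the one called in both states, higher in stellate cells. Eng (ENSMUSG00000026814.16, chromosome 2, 32646595 to 32682669, plus strand) was at 285 and 114 CPM in uninjured Gli1+, 199 and 240.0 in BDL Gli1+, 1569.6 and 2312 in uninjured stellate and 1811 and 1533 in BDL stellate libraries. Every stellate library lay above every Gli1+ library. Eng was 9.71-fold lower by mean CPM in Gli1+ than in stellate cells without injury (-3.39 ± 0.44, adjusted p = 0.00229) and 7.63-fold lower after BDL (-2.93 ± 0.44, 0.00677). The second call was lost without any 1 of the 4 BDL libraries, with adjusted p of 0.0867 and 0.0508 without the first and second Gli1+ library and 0.0873 and 0.0614 without the first and second stellate library.

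Cd93 (ENSMUSG00000027435.8, chromosome 2, 148436640 to 148443563, minus strand), a lectin-like receptor that binds Mmrn2, was called in 2 comparisons. It was at 28.6 and 10.3 CPM in uninjured Gli1+, 63.5 and 70.6 in BDL Gli1+, 0.0612 and 0.209 in uninjured stellate and 109 and 100.5 in BDL stellate libraries. The uninjured stellate pair held 5 reads together, and the 4 groups did not overlap. Without injury Cd93 was 144-fold higher in Gli1+ cells by mean CPM (4.01 ± 0.61, adjusted p = 0.00474). In stellate cells it rose with BDL, 777-fold by mean CPM (6.54 ± 0.61, adjusted p = 0.00848). The rise was not called with limma-voom (adjusted p = 0.202) or with only the 4 stellate libraries in the model (0.189). That rise was no longer called without the first or second stellate BDL library (0.163 and 0.268) or without the first or second Gli1+ BDL library (0.0656 and 0.074).

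Kdr, the main signalling receptor for VEGF, was at 172 and 57.7 CPM in uninjured Gli1+, 69.2 and 208 in BDL Gli1+, 45.4 and 20.2 in uninjured stellate and 230.0 and 258 in BDL stellate libraries. Gli1+ libraries lay above stellate ones without injury (1.68 ± 0.67, adjusted p = 0.162) and below them after BDL (-1.01 ± 0.67, 0.491). Flt1, a VEGF receptor that also acts as a decoy, was at 61.6 and 1.71, 54.5 and 74.8, 13.1 and 5.21 and 118 and 79.9 CPM in the same order. Its uninjured Gli1+ pair spanned the uninjured stellate pair. BDL against uninjured stellate gave 2.96 ± 0.67 for Kdr (0.139) and 3.39 ± 1.22 for Flt1 (0.305).

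Ptprb, a phosphatase acting on Tek and Cdh5, had the same arrangement as Kdr: 131 and 25.2 CPM in uninjured Gli1+, 60.9 and 278 in BDL Gli1+, 22.8 and 3.81 in uninjured stellate and 462 and 398 in BDL stellate libraries. Its stellate BDL difference of 5.33 ± 0.998 had an adjusted p of 0.099. Tek and Tie1 are the angiopoietin receptor and its partner. Tie1 was at 25.04 and 3.195 CPM in uninjured and 49.2 and 57.1 CPM in BDL Gli1+ libraries, without overlap (2.37 ± 0.81, adjusted p = 0.285). Adgrl4, an adhesion receptor, was at 32.7 and 0.0521 CPM in uninjured and 119 and 99.7 CPM in BDL stellate libraries (4.204 ± 1.36, 0.262), and at 47.1 and 44.00 CPM in BDL Gli1+ ones. Ramp2, which turns Calcrl into an adrenomedullin receptor, varied least of the receptors between groups, with log2 fold changes between -1.197 and 0.87 in the 4 comparisons of groups.

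Among the 8 junction and surface genes 1 was called in uninjured liver, where 11.1% of all genes were, and 0 in the other comparisons. Pecam1, the adhesion molecule of endothelial contacts, was at 67.3 and 22.7 CPM in uninjured Gli1+, 115 and 110.0 in BDL Gli1+, 46.8 and 4.74 in uninjured stellate and 122 and 109.5 in BDL stellate libraries. Both BDL groups lay above both uninjured groups and overlapped each other (Gli1+ against stellate after BDL -0.04 ± 0.89, adjusted p = 0.989). Cdh5, the endothelial cadherin, was at 80.4 and 11.4, 54.6 and 121, 72.8 and 2.24 and 66.03 and 101 CPM in the same order, and its groups overlapped in all comparisons. The stellate BDL difference was 2.82 ± 0.89 for Pecam1 (0.255) and 2.42 ± 1.36 for Cdh5 (0.542).

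The gene called was Clec14a (ENSMUSG00000045930.2, chromosome 12, 58264720 to 58269290, minus strand), a lectin-like surface protein related to Cd93. It was at 82.7 and 13.9 CPM in uninjured Gli1+, 44.4 and 85.4 in BDL Gli1+, 257 and 369 in uninjured stellate and 282 and 269 in BDL stellate libraries. As with Eng, every stellate library lay above every Gli1+ library. Without injury Clec14a was 6.48-fold lower by mean CPM in Gli1+ cells (-3.13 ± 0.71, adjusted p = 0.0255), and after BDL the difference was -2.14 ± 0.71 (0.126). With edgeR the uninjured call was lost (adjusted p = 0.0626), and it was lost without a filter on low values (0.118). The call was lost without the second uninjured Gli1+ library (-1.88, adjusted p = 0.066), the second uninjured stellate library (0.0749) or the first or second stellate BDL library (0.0572 and 0.0578).

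Of the remaining surface genes, Emcn, a sialomucin, was at 20.7 and 3.82 CPM in uninjured Gli1+, 54.6 and 26.5 in BDL Gli1+, 1.83 and 0.104 in uninjured stellate and 41.98 and 15.9 in BDL stellate libraries. Its uninjured stellate pair was the lowest. The BDL difference was 3.93 ± 0.97 in stellate (adjusted p = 0.163) and 1.94 ± 0.97 in Gli1+ cells (0.537). Mmrn2, a matrix protein bound by Cd93 and Clec14a, had a BDL difference of 3.54 ± 0.98 in stellate cells. Esam, a junction adhesion protein, was the only member whose BDL Gli1+ libraries, at 93.98 and 109 CPM, both lay below the uninjured ones, at 126 and 238 CPM (-0.77 ± 0.43, adjusted p = 0.6). Egfl7, a secreted vessel protein, and Ecscr had BDL differences of 1.62 ± 0.79 and 1.64 ± 0.44 in Gli1+ cells and 1.47 ± 0.79 and 1.99 ± 0.44 in stellate cells.

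Erg (ENSMUSG00000040732.18, chromosome 16, 95359169 to 95586593, minus strand), an ETS transcription factor of the endothelial lineage, was at 16.2 and 5.53 CPM in uninjured Gli1+, 3.39 and 8.02 in BDL Gli1+, 0.0612 and 0.0521 in uninjured stellate and 28.6 and 29.9 in BDL stellate libraries. The uninjured stellate libraries held 1 read each, and the BDL stellate libraries were the highest of all. Without injury Erg was higher in Gli1+ cells, with a pooled CPM ratio of 173 (95% interval 47.4 to 1434), which covers counting error only (3.33 ± 0.83, adjusted p = 0.0361). That call held under 8 of 18 alternatives. It was lost without any 1 of the 8 libraries except the second uninjured Gli1+ library, with adjusted p of 0.0558 to 0.14, the highest without the first uninjured Gli1+ library (log2 fold change 2.63). In stellate cells BDL against uninjured gave a pooled ratio of 518 (95% interval 143 to 4281) with an adjusted p of 0.0788, not past the threshold.

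Vascular members were called in both directions, with Plvap lower and Vwf and Aplnr higher in Gli1+ cells. Plvap (ENSMUSG00000034845.5, chromosome 8, 71497765 to 71511752, minus strand) was at 139 and 157 CPM in uninjured Gli1+, 243 and 157 in BDL Gli1+, 5929 and 12009 in uninjured stellate and 10379 and 6196 in BDL stellate libraries. The stellate libraries all lay far above the Gli1+ ones. Plvap was 60.6-fold lower by mean CPM in Gli1+ cells without injury (-5.83 ± 0.44, adjusted p = 0.000233) and 41.4-fold lower after BDL (-5.35 ± 0.44, 0.00079). It gave 61.7 and 78.4 percent of the members' summed CPM in the uninjured stellate libraries and 54.5 and 48.7 percent after BDL, against 4.38 and 12.7 and 10.7 and 4.48 percent in Gli1+ libraries. It was highest in the second uninjured stellate library, where 12 other members were under 1 CPM.

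Vwf (ENSMUSG00000001930.17, chromosome 6, 125546774 to 125686679, plus strand), the clotting protein stored by endothelium of larger vessels, marked Gli1+ libraries in both states. It was at 21.04 and 11.4 CPM in uninjured Gli1+, 74.6 and 165 in BDL Gli1+, 0.122 and 0 in uninjured stellate and 7.18 and 10.3 in BDL stellate libraries. Every Gli1+ library lay above every stellate library. Without injury 2 reads were found in the stellate pair, and the pooled ratio was 269.7 (95% interval 74.2 to 2234), counting error only (3.96 ± 0.72, adjusted p = 0.0102). After BDL Vwf was 13.7-fold higher in Gli1+ cells (3.54 ± 0.72, 0.0218). The first call was lost without the first uninjured Gli1+ library (3.55, adjusted p = 0.0609). The second was lost without the first or second Gli1+ BDL library (0.0999 and 0.202) or the first or second stellate BDL library (0.182 and 0.126). With limma-voom the uninjured call was lost as well (adjusted p = 0.0548). The call after BDL was also lost with edgeR (0.0502), limma-voom (0.0683) and a pseudocount of 0.1 (0.0564). BDL against uninjured gave 2.76 ± 0.72 in Gli1+ (0.154) and 3.18 ± 0.72 in stellate cells (0.141), both without overlap and not past the threshold.

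The ratio of Vwf to the 4 sinusoidal genes, in CPM, was 0.0423 and 0.136 in uninjured Gli1+, 0.841 and 0.339 in BDL Gli1+, 0.00028 and 0 in uninjured stellate and 0.0038 and 0.00961 in BDL stellate libraries. Each Gli1+ library was above each stellate library, and the 2 BDL Gli1+ libraries were above the other 6. This ratio was not planned. Vwf by itself lay higher in every Gli1+ library, so the parting of the sorts follows in part from that choice of gene. Aplnr (ENSMUSG00000044338.9, chromosome 2, 85136225 to 85139923, plus strand), the apelin receptor, was at 2.397 and 0 CPM in uninjured Gli1+, 22.6 and 7.18 in BDL Gli1+, 0 and 0 in uninjured stellate and 0 and 0.34 in BDL stellate libraries. Both BDL Gli1+ libraries lay above the other 6, with 400 reads against 4 in the BDL stellate pair. After BDL it was higher in Gli1+ cells (87.6-fold by mean CPM, 3.58 ± 0.80, adjusted p = 0.0322). The call was lost without the first or second Gli1+ BDL library (0.195 and 0.0636), without the first or second stellate BDL library (0.238 and 0.16), and with edgeR (0.384), limma-voom (0.118) and DESeq2 (0.134).

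Sox17 and Sox18 are transcription factors of vessel development, and Cldn5 is the tight junction protein of endothelium. Sox17 varied little in Gli1+ libraries, at 32.1 and 29.2 CPM without injury and 32.6 and 37.8 CPM after BDL. It was at 8.56 and 0.0521 and 35.4 and 13.3 CPM in the uninjured and BDL stellate libraries, and its uninjured difference between sorts was 3.32 ± 0.99 (adjusted p = 0.0695). Cldn5 was at 57.01 and 15.98, 99.4 and 64.5, 16.1 and 0.782 and 72.4 and 72.8 CPM in uninjured Gli1+, BDL Gli1+, uninjured stellate and BDL stellate libraries. Sox18 was at 51.3 and 7.53, 76.97 and 59.9, 17.3 and 0.104 and 60.7 and 61.7 CPM. For both genes the 2 BDL groups were close, with differences between sorts of 0.14 ± 0.99 and 0.15 ± 1.25.

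**Figure D3:**
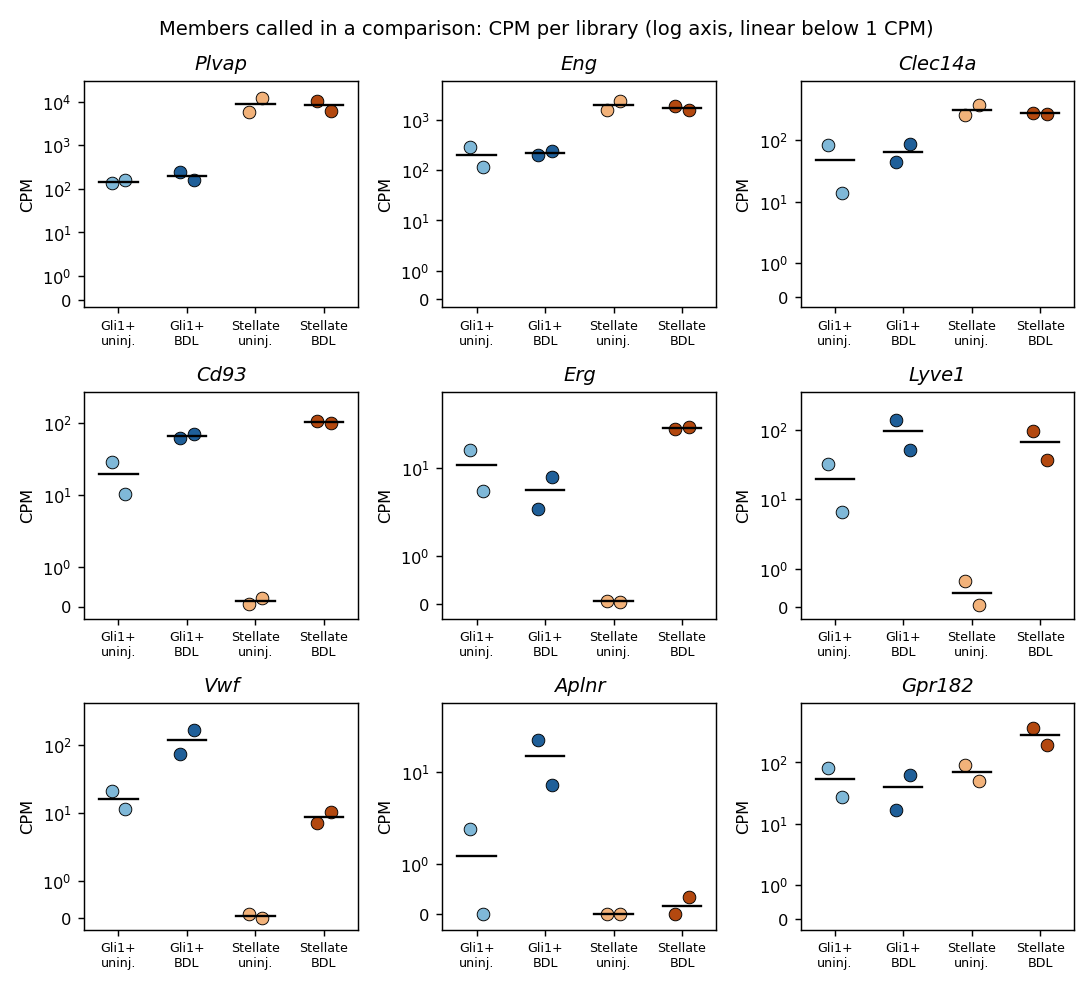
CPM in each library (points, 2 per group; horizontal lines, group means; log axis, linear below 1 CPM) of the 9 members that passed the test in a comparison. Plvap, Eng and Clec14a are higher in all stellate libraries, Vwf in all Gli1+ libraries, and Cd93, Erg and Lyve1 are lowest in the uninjured stellate libraries.

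In uninjured liver the sorts differed in 7 of 32 members: Cd93, Vwf, Lyve1 and Erg were higher in Gli1+ cells, and Plvap, Eng and Clec14a were lower. Of all 16446 genes 11.1% were called (8.06% higher, 3.02% lower). The median log2 fold change of the members was 1.296, against 0.32 for all genes, with 24 above 0 and 8 below. With TMM scaling, which moved the median of all genes to 0.14, 22 were above 0. Groups did not overlap for 9 members higher in Gli1+ (31.1% of all genes) and 3 lower (14.6%). These counts depended on the uninjured stellate libraries. Without the first, 10 members were called higher and the median was 2.25; without the second, 2 were called higher and 2 lower and the median was -0.18. Without the first uninjured Gli1+ library 1 was called higher, with a median of 0.45, and without the second the median was 2.36. Without any 1 of the 4 BDL libraries 2 were called higher, and with only the 4 uninjured libraries in the model none was called, nor was any of all the genes tested. The macrophage genes were all 15 above 0 here, with 0 called and 0 free of overlap. Mitochondrial transcripts made up 3.51 and 2.21 percent of Gli1+ and 1.396 and 0.808 percent of stellate reads, and genes with a read numbered 18319 and 19300 against 16249 and 15963. The part of these in the result was not tested.

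After BDL most members lay on the stellate side. Plvap, Eng and Gpr182 were lower in Gli1+ cells and Vwf and Aplnr higher, 5 of 32 members against 6.8% of all genes (4.44% higher, 2.36% lower). The median member was at -0.80, all genes at 0.23, and 24 members were below 0. With TMM scaling the median of all genes was 0.09 and 26 members were below 0. Groups did not overlap for 20 members lower in Gli1+ (19% of all genes) and 2 higher (34.8%). By role, 7 of 8 sinusoidal genes, 7 of 9 receptors, 4 of 8 junction and surface genes, Erg, and 1 of 6 vascular genes (Plvap) were non-overlapping and lower. Calls other than Plvap were lost without any 1 of the 4 BDL libraries. In this comparison 9 of 10 hepatocyte genes and 9 of 15 macrophage genes were non-overlapping and higher in Gli1+ cells, the reverse of the sinusoidal genes, and mitochondrial transcripts made up 3.498 and 5.72 percent of Gli1+ and 1.72 and 2.73 percent of stellate reads; the part of these in the result was not tested.

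**Figure D4:**
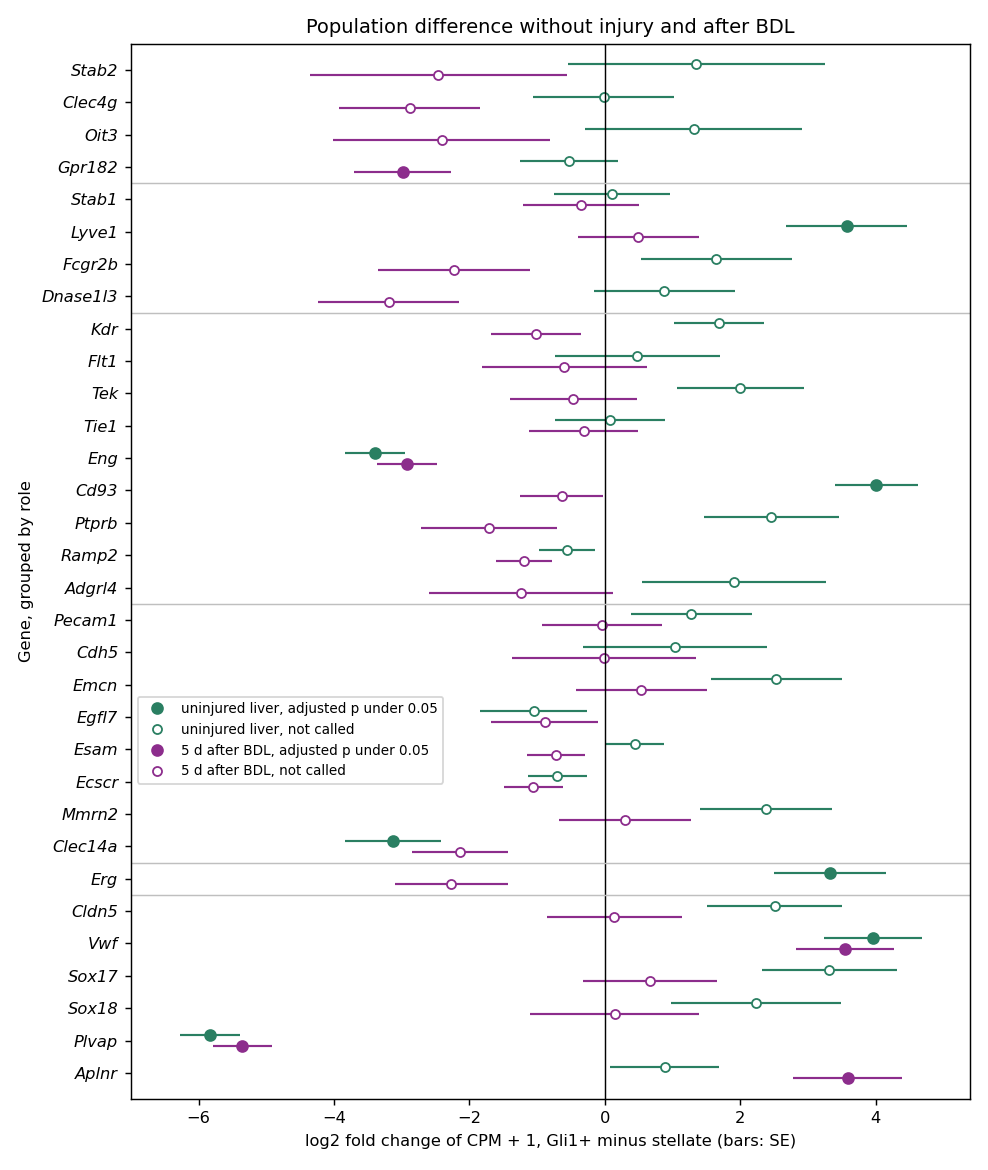
Log2 fold change of CPM + 1 between Gli1+ and stellate cells for each member (points; bars, SE of the model) in uninjured liver and 5 d after BDL; filled points have an adjusted p under 0.05. The 8 sinusoidal genes lie between -0.53 and 3.57 without injury and, all but Lyve1, below 0 after BDL, while Plvap, Eng and Clec14a are below 0 and Vwf above 0 in both states.

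In Gli1+ cells no member passed the test for BDL against uninjured, and neither did any of the 16446 genes (0%) in the limma model. Unadjusted, 6 members and 1812 genes had a p under 0.05. DESeq2 called 1 member, Vwf, and 412 of all 16446 genes, and edgeR called 0 members and 0 genes. The median member was 1.11 above the uninjured level on the log2 scale, all genes 0.12, and 27 of 32 were above 0. Without the second uninjured Gli1+ library the median was 0.076, with 18 above 0 and all genes at 0.11, and without the first it was 2.04. Groups did not overlap for 15 members higher after BDL (25.1% of all genes) and 1 lower (Esam; 16.2%). By role these 15 were 0 of the 4 sinusoidal genes of the rule, 2 of the other 4 (Stab1 and Lyve1), 3 of 9 receptors, 5 of 8 junction and surface genes and 5 of 6 vascular genes. The vascular sum without Plvap was 164 and 64.1 CPM before and 306 and 334 CPM after BDL. With Plvap it was 303 and 221 CPM before and 549 and 491 CPM after. Hepatocyte genes also lay above their uninjured levels, 10 of 10 and 9 of them without overlap; their part in the member values was not tested.

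In stellate cells Cd93 was the only member called for BDL against uninjured, of 32 members, against 0.225% of all genes. The other members lay in the same direction: 29 of 32 were above 0, the median was 2.84 against 0.19 for all genes, and 26 did not overlap and were higher after BDL (27.4% of all genes), with 0 non-overlapping and lower (12.2%). The 3 below 0 were Eng (-0.19 ± 0.44), Clec14a (-0.16 ± 0.71) and Plvap (-0.07 ± 0.44), the same 3 that were called lower in uninjured Gli1+ cells. Both comparisons use the same uninjured stellate libraries, so this match is not independent. Unadjusted, 24 members and 1968 genes had a p under 0.05. Without the first uninjured stellate library the median of the members was 3.81 and 29 were above 0. Without the second, the median was 1.73 and all 32 were above 0. DESeq2 called 11 members higher and 0 lower, and of all 16446 genes it called 848 higher and 175 lower. Hepatocyte genes were non-overlapping and higher in 10 of 10, portal fibroblast genes in 8 of 10, and macrophage genes in 0 of 15, and the part of other cell types in the member levels was not tested. Genes with a read numbered 16249 and 15963 in uninjured stellate libraries, the lowest of all 8, and 19844 and 18919 after BDL. Mitochondrial transcripts made up 1.396 and 0.808 percent of reads before and 1.72 and 2.73 percent after, and the part of either in the result was not tested.

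**Figure D5:**
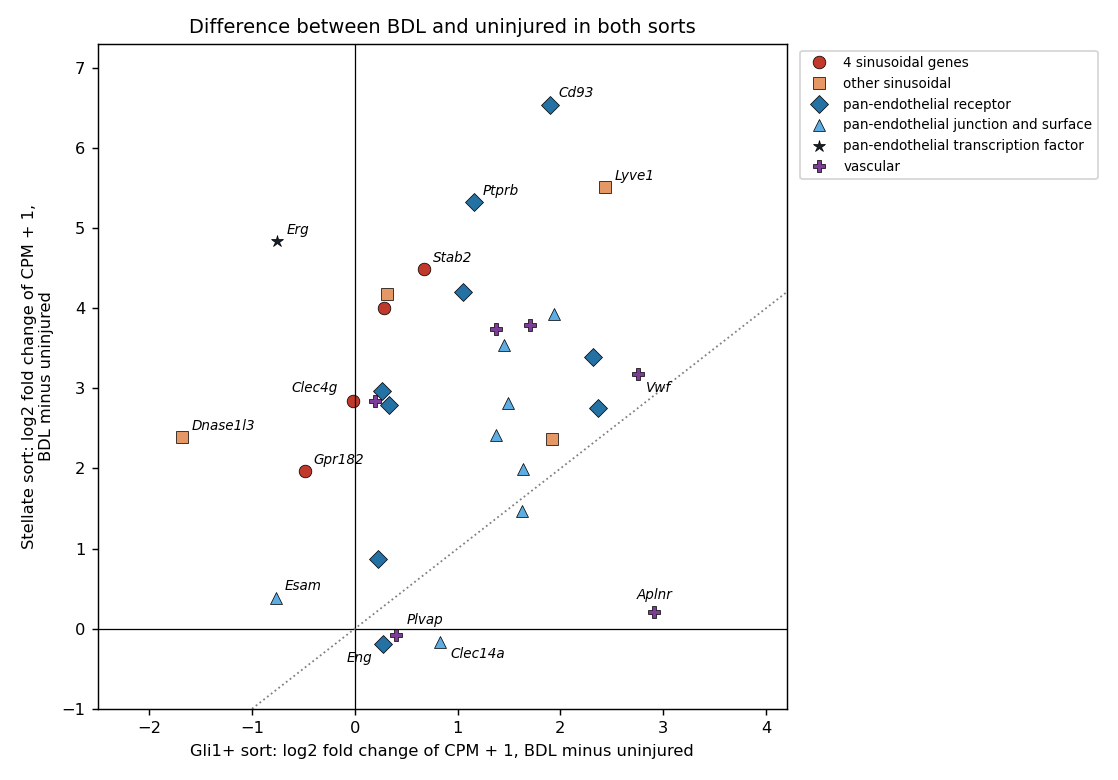
BDL minus uninjured log2 fold change of CPM + 1 of each member in Gli1+ cells (x axis) against stellate cells (y axis); symbols give the role and the dotted line marks equal values. Most members lie above the line, with Plvap, Eng and Clec14a near the origin and Aplnr at the lower right.

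The difference of these BDL responses (Gli1+ minus stellate) was tested as an interaction and called no member by limma (0.0122% of all genes, 2 genes). It was below 0 for 27 of 32 members, with a median of -2.09 against -0.12 for all genes. The median was -0.69 without the second uninjured stellate library, -1.21 without the first uninjured Gli1+ library (23 below 0) and -3.15 without the second. For 4 members, and for 1.81% of all genes, the Gli1+ libraries all lay above the stellate ones without injury and all below them after BDL. At the extremes were Erg at -5.59 ± 1.17 (adjusted p = 0.341) and Aplnr at 2.703 ± 1.13 (0.638). DESeq2 called 3 members: Erg at -9.82 (adjusted p = 4.0e-06), Cd93 at -7.65 (1.8e-08) and Lyve1 at -5.20 (0.0259). All 3 had few reads in uninjured stellate libraries. Of all 16446 genes DESeq2 called 389, 316 of them lower. With edgeR 0 members and 11 genes were called. A different response of the sorts was not shown for any member by limma.

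Ligands and co-receptors of the member receptors and of their families were followed with a list of 15 genes. For Gli1+ against stellate cells, 4 of them were called higher and 3 lower without injury (8.06% and 3.02% of all genes), 1 higher and 4 lower after BDL (4.44% and 2.36%). The ligands of Eng were on the stellate side. Gdf2 was at 21.5 and 36.9 CPM in uninjured Gli1+ and 1379 and 2161 CPM in uninjured stellate libraries (-5.89 ± 0.47, adjusted p = 0.000284), and after BDL at 8.14 and 20.3 and 1597 and 1303 CPM (-6.69 ± 0.47, 0.000507). Bmp10 was at 181 and 83.4 CPM in uninjured and 105 and 84.6 CPM in BDL stellate libraries, with 2 and 4 reads in the Gli1+ pairs. Calcrl, the partner of Ramp2, was 16.6-fold lower in Gli1+ cells without injury (0.00629) and 10.4-fold lower after BDL (0.0322).

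Of the VEGF receptor ligands, Vegfa, Vegfd and Pgf were called higher in uninjured Gli1+ cells. Vegfa was at 31.97 and 57.7 CPM in uninjured Gli1+ and 0 and 3.96 CPM in uninjured stellate libraries (4.303 ± 1.07, adjusted p = 0.0364). Vegfd was at 89.7 and 108 and 2.08 and 0 CPM (5.82 ± 0.72, 0.00176), and after BDL at 37.8 and 59.03 and 6.31 and 4.42 CPM (2.94 ± 0.72, 0.0448). Pgf had no read in uninjured stellate libraries and 28.6 and 8.05 CPM in uninjured Gli1+ ones, at least 190-fold higher against 3 reads over the group (adjusted p = 0.0402). Nrp2, a VEGF co-receptor, was at 47.4 and 98.1 CPM in uninjured Gli1+ and 0.245 and 0.0521 CPM in uninjured stellate libraries (0.000721) and rose in stellate cells with BDL to 39.00 and 37.8 CPM (5.11 ± 0.59, adjusted p = 0.0223). Adm, a ligand for Calcrl with Ramp2, was lower in Gli1+ cells after BDL, at 23.1 and 25.4 against 277 and 158 CPM (-3.06 ± 0.36, 0.00238).

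Endothelial genes outside the 32 members are given by counts. Of 16 further pan-endothelial genes, 16 were above 0 for BDL against uninjured in stellate cells, 14 without overlap (27.4% of all genes), and 2 passed the test (0.225%): Podxl, at 0.0612 and 0.0521 then 104 and 75.01 CPM (6.403 ± 0.59, adjusted p = 0.00848), and Robo4 (5.05 ± 0.74, 0.0458). In Gli1+ cells 16 were above 0 and 10 did not overlap (25.1%), with 0 called (0%). Of 12 further sinusoidal genes, 12 were below 0 for Gli1+ against stellate after BDL, 11 without overlap (19%), and 1 was called lower (2.36%): Bmp2, a sinusoidal signal to hepatocytes (-3.15 ± 0.79, 0.0498).

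Called genes on the arterial and lymphatic lists lay on both sides. Of 7 arterial genes tested, 2 were called higher and 2 lower in Gli1+ cells without injury (8.06% and 3.02% of all genes). After BDL 1 was called higher and 1 lower (4.44% and 2.36%). Without injury 5 of the 7 were below 0, and after BDL 5 were above 0. Among arterial genes Efnb2 was called higher in Gli1+ cells in both states, with 70.8 and 62.6 against 10.9 and 9.94 CPM after BDL (2.57 ± 0.63, adjusted p = 0.0472), and Gja4 lower in both (-2.59 ± 0.56, 0.0275). None of 5 venous genes was called in any comparison of groups. The lymphatic genes Mmrn1 and Prox1 were called higher in Gli1+ cells after BDL: Mmrn1 was at 189.6 and 29.03 against 0.0584 and 0.17 CPM (0.0106) and Prox1 at 19.7 and 32.9 against 2.92 and 0.425 CPM (0.0398). Pdpn and Reln, also on that list, were called in opposite directions in both states: Pdpn was at 535 and 1195 CPM in uninjured Gli1+ libraries and Reln at 3527 and 3572 CPM in uninjured stellate ones. Reln is also on the list of stellate markers, so its level cannot be read as lymphatic RNA alone. The part of other cell types in the levels of Mmrn1, Prox1 and Pdpn was not tested. Platelet genes that were called, Itga2b and Itgb3, were lower in Gli1+ cells in both states.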

How the data were processed

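RNA-seq libraries of sorted mouse liver cells (8 libraries, 4 groups of 2) were deposited by the authors as CPM, 1 column per library, headed as normalized counts. The build mm10 and the tools STAR 2.5.2b, featureCounts, FastQC and DESeq2 are named, without roles, per the submitters' processing notes. The sources used here do not give the strand setting, the annotation release or how multiply mapping reads were counted. Columns summed to 1000000, and 100% of values were whole multiples of 1 read within 0.1 read, so reads were recovered for count models and intervals. Of 30395 identifiers, 30233 matched GENCODE vM21 (GRCm38, the assembly of mm10), which gave symbols, coordinates counted from 1 and merged exon lengths.

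The main test was limma-trend on log2(CPM + 1), run with R 4.3.3 and limma 3.58.1, with 4 group means over 8 libraries (4 residual degrees of freedom), on the 16446 genes that reached 1 CPM in 2 or more libraries. P-values were adjusted by Benjamini-Hochberg over all of them, threshold 0.05, and the fit was tested on simulated data. Fold changes on this scale understate changes of genes with few reads. Ratios "by mean CPM" have no pseudocount; with 1 to 3 reads in a group, a ratio has an exact 95% interval, and with 0 reads it is a bound from 3 reads over the group. PCR copies are not independent molecules, so intervals and floors cover counting error only. Alternatives were edgeR 4.0.16 (quasi-likelihood), limma-voom and DESeq2 1.42.0 on recovered reads, TMM scaling, pseudocounts of 0.1 and 0.5, no filter or 5 CPM, only the libraries compared, a replicate block and each library left out.

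Members and lists were chosen with earlier results of these data known. All members are described; full values are given for those called in a comparison, the 4 sinusoidal genes, Pecam1, Cdh5, Kdr, Flt1, Vwf and Eng, and up to 4 more per comparison by largest fold change with at least 20 CPM in a group; other lists give up to 4 called genes per direction. Further members named in a clause were picked after their values were seen. The symbols Ccl21a, Hba-a2 and Hbb-bt were not matched. Leucocyte genes summed to at most 187 CPM and erythroid genes to at most 3.89 CPM in a library.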

Additional observations from a re-analysis of the deposited data

Results flagged for a closer look

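For 4 members every Gli1+ library lay above every stellate library without injury and every Gli1+ library lay below every stellate library after BDL, a pattern found in 1.81% of all 16446 genes. The difference between the 2 states was tested as an interaction by limma and was not past the threshold for any of them. It was -2.697 ± 0.94 (SE) for Kdr (adjusted p = 0.538), -4.65 ± 0.86 for Cd93 (0.292), -5.59 ± 1.17 for Erg (0.341) and -4.17 ± 1.41 for Ptprb (0.538), on the log2 scale of CPM + 1. DESeq2 on recovered reads called Cd93 (adjusted p = 1.8e-08) and Erg (4.0e-06) and did not call Kdr (0.242) or Ptprb (0.128). It called 389 of all 16446 genes. The uninjured stellate libraries held 5 reads of Cd93 and 2 of Erg, so their size on the log scale depends on the pseudocount.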

How the results depend on the processing

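Of 878 alternative values for 49 named fold changes, 778 kept direction and side of the threshold, 69 lost the call, 28 gained it and 3 reversed. The 3 were in stellate cells, BDL against uninjured: Eng without the second uninjured stellate library (0.086) and Plvap without that library (0.44) or the second BDL stellate library (0.30). Leaving out 1 library, Eng ranged from -0.47 to 0.086 there and Plvap from -0.58 to 0.44. Plvap after BDL kept its call under 18 of 18 alternatives. The highest adjusted p over the alternatives was 0.116 to 0.24 for the 7 members called in uninjured liver, 0.0175 (Plvap) to 0.384 (Aplnr) for the 5 after BDL and 0.268 for Cd93 in stellate BDL. In uninjured liver the genes called were 2996 by DESeq2, 810 without a filter and 0 with only the 4 libraries compared, where members called were 0 higher and 0 lower. Members higher there were 2 by limma-voom and 2 without a filter. After BDL edgeR called 621 genes and limma-voom 592, and members higher were 0 by edgeR, 0 by limma-voom, 1 by DESeq2, 0 at a pseudocount of 0.1 and 1 without a filter. Members lower were 5 by DESeq2 and 5 with only 4 libraries. For Gli1+ BDL the genes called were 412 by DESeq2 (1 member), 127 without a filter and 3 at 5 CPM. For stellate BDL they were 62 by edgeR, 0 by limma-voom, 1023 by DESeq2, 23 with TMM, 97 at a pseudocount of 0.1, 6 without a filter and 0 with only 4 libraries. Members higher there were 2 by edgeR, 0 by limma-voom, 11 by DESeq2, 4 at a pseudocount of 0.1, 2 at 5 CPM and 0 with only 4 libraries. For the difference of responses 11 genes were called by edgeR, 0 by limma-voom, 389 by DESeq2 (3 members, lower) and 0 without a filter.

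Leaving out 1 library gave 1022 to 1808 genes in uninjured liver (1 to 10 members higher, 2 to 3 lower), 145 to 1375 after BDL (0 to 2, 1 to 5), 0 to 5 for Gli1+ BDL (0 members), 0 to 219 for stellate BDL (0 to 11 members higher) and 0 to 33 for the difference. A group left with 1 library was assumed to vary like the others. The ratio of sinusoidal to pan-endothelial CPM averaged 0.105 in uninjured stellate libraries, 0.300 without Eng and 0.445 without Eng and Clec14a. In BDL stellate libraries it averaged 0.347, 0.577 without Eng, 0.647 without both and 0.485 per kb.

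Deviations of libraries of the same replicate number had correlations across genes of -0.11 to 0.11. The correlation was 0.079 between the uninjured sorts and 0.11 between the BDL sorts. With 2 libraries a group, these values cannot tell whether the numbers pair the samples. With a replicate block, 18 genes and 2 members were called for stellate BDL and 0 genes for the difference of responses. Calls of Erg in uninjured liver (adjusted p = 0.0574) and Gpr182 after BDL (0.0595) were lost under the block.

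At most 9 members had 3 reads or fewer in a library. With 2 libraries a group, precision rests on the spread shared over groups.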
